A study of Mus musculus with 12 samples.

Results

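MIN6 is a mouse insulinoma line whose cells secrete insulin when glucose rises, and clone 4 is a subclone that was derived from early parental cells by limiting dilution. The comparison described here set high-passage clone 4 cells (C4-HP, passages 40 to 50) against high-passage parental cells (Pr-HP, passages 35 to 40), so that both sides had been cultured for long and 1 of them had kept its response to glucose. The study classed C4-HP as responsive to glucose and Pr-HP as not responsive. These populations take up 6 of the 12 arrays of the series. The other 6 hold parental cells (Pr-LP) and clone 4 cells (C4-LP) at passages 17 to 20, both responsive, which are used here to place each value. All 4 populations were grown in the same serum-containing medium with a high glucose level, and the labels name no genetic change and no agent. Clone 4 is 1 clone and the parental cells were not cloned again, so a difference between them can belong to the clone, to the long culture or to the response to glucose, and these cannot be told apart.

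In β-cells glucose enters through the transporter GLUT2, and its metabolism closes KATP channels, opens calcium channels and drives the fusion of insulin granules with the plasma membrane. β-Cells also keep certain housekeeping genes, such as that for lactate dehydrogenase A, at low levels, which are called disallowed genes. Lines grown from insulinomas are known to lose their response to glucose over long culture.

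RNA of each population was labelled with biotin and hybridised to a set of 3 Affymetrix mouse chips (MG_U74v2 A, B and C), with 1 array for each population and chip. No error can therefore be given for any value, no test was possible, and every ratio describes these arrays alone. The values are probe set intensities in linear units, and the medians of the 4 arrays differed by 0.860%, 0.521% and 0.451% on chips A, B and C. A ratio was taken after values under the 20th percentile of the chip (67.1, 58.5 and 29.2 units) were raised to it, and a gene counted as measured where C4-HP or Pr-HP reached 100 units. Such a gene was represented by the probe set with the highest mean over the 4 arrays. Where the lower value lay under the percentile, the fold is given as at least that size. In RNA of a whole culture, fewer cells of a kind and less RNA in each cell cannot be told apart.

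Of 12597 genes measured at high passage, 41 were over 3-fold higher in C4-HP (0.325%) and 77 over 3-fold higher in Pr-HP (0.611%). At 5-fold the counts were 16 (0.127%) and 27 (0.214%), and at 2-fold 140 (1.11%) and 218 (1.73%). The bulk of the transcriptome lay close to parity, with 97.2% of genes within 2-fold and a median log2 ratio of C4-HP over Pr-HP of -0.000833. Counted as probe sets, which include those with no single gene name, 70 of 23401 were higher in C4-HP (0.299%) and 120 higher in Pr-HP (0.513%), and 10 and 11 of these carry no single name. The median fold of the 41 genes was 4.31 and the largest 23.1, and that of the 77 genes was 4.11 and the largest 32.4. Just inside the 3-fold limit lay Tm4sf4 (3.02-fold) and Bex4 (3.01-fold in the other direction), and just outside it Mmd2 (2.97-fold) and Ngfr (2.97-fold in the other direction).

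**Figure D1:**
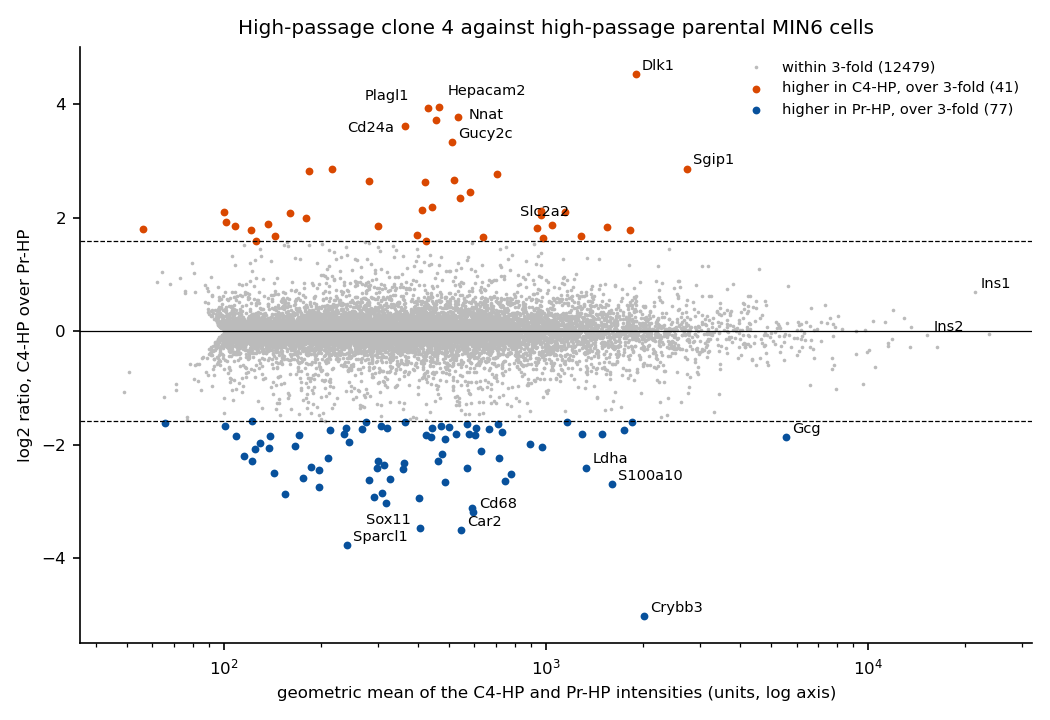
Each point is 1 of 12597 genes, with the geometric mean of its C4-HP and Pr-HP intensities on a log axis and its log2 ratio of C4-HP over Pr-HP on the other. Orange and blue points lie past the dashed 3-fold lines, and the extremes are Dlk1 at 4.53 and Crybb3 at -5.02.

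The spread of repeated measurements gives a scale for these ratios. The 9 probe sets for bacterial transcripts added to the samples gave log2 ratios between -0.19 and 0.33 over the 3 chips, that is 0.878- to 1.25-fold. The 18 control probe sets for mouse RNA, which stand on every chip, had a median SD over the chips of 0.0623 on the log2 scale. Their largest SD was 0.793, and their log2 ratios ran from -2.87 to 0.37. That SD and the lowest ratio belonged to the control for Il4, a transcript that differed between the populations. On chips A and B its C4-HP values (29.3 and 32.6 units) lay under the percentile and were raised to it. Its ratios there (-1.30 and -1.90) are therefore bounds, and its SD is no measure of repeatability. Among the other mouse controls the largest SD was 0.167, and the log2 ratios ran from -0.81 to 0.37. On all 3 chips those of Gapdh (-0.62 to -0.20) and β-actin (-0.75 to -0.46) were lower in C4-HP. Those of the transferrin receptor (0.10 to 0.37) were higher. Different probe sets of 1 gene differed by a median of 0.18 over 10694 pairs, with 97.9% of the pairs within 1. These spreads describe the arrays and probes only, and the spread between cultures was not measured. The probe sets of a called gene often disagreed in size. Another probe set of a gene was counted here if it reached 100 units in C4-HP or Pr-HP. Of 16 genes higher in C4-HP that had another probe set, 8 had one past 2-fold in the same direction and 5 had none past 1.5-fold. Of 31 genes higher in Pr-HP, these counts were 19 and 7.

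**Figure D2:**
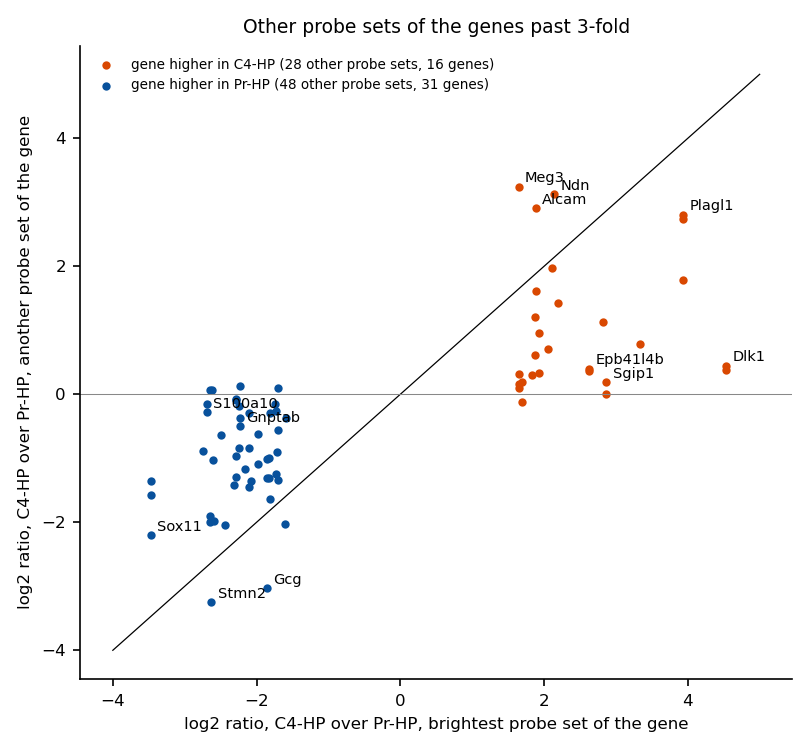
Each point is another probe set of a gene past 3-fold, with the log2 ratio of C4-HP over Pr-HP of the gene's brightest probe set on the horizontal axis and its own on the vertical axis, and the line marks equal values. Meg3, Ndn, Alcam and Gcg have another probe set with a larger ratio, while those of Dlk1, Sgip1 and S100a10 lie near 0.

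Among the largest ratios in favour of C4-HP were those of imprinted genes, which are expressed from the allele of 1 parent. Of 38 measured imprinted genes, 6 were past 3-fold higher in C4-HP and 1 past 3-fold higher in Pr-HP, beside 0.325% and 0.611% of all genes. The list's median log2 ratio was 0.08, so that most members lay near parity. This list and the lists described below were drawn up with earlier results of these arrays known, and their counts are no independent evidence.

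Dlk1, which encodes a transmembrane protein with EGF repeats related to Notch ligands, had 12820 units in Pr-LP, 395 in Pr-HP, 15871 in C4-LP and 9139 in C4-HP. Pr-HP stood far below the other 3 populations, and C4-HP exceeded it 23.1-fold. Its dimmer probe sets gave 1.31-fold and 1.36-fold, with 108 and 153 units in Pr-HP against 142 and 209 in C4-HP. Meg3, a noncoding RNA made from the other allele of the same imprinted cluster, had 1452, 555, 2202 and 1739 units in the same order, a 3.13-fold difference. A further Meg3 probe set went from 55.3 units in Pr-HP to 637 in C4-HP, at least 9.48-fold, whereas 3 others differed by 1.07- to 1.25-fold.

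Plagl1, a zinc finger transcription factor expressed from the paternal allele, had 1605 units in Pr-LP, 110 in Pr-HP, 1605 in C4-LP and 1677 in C4-HP. The 3 responsive populations were nearly equal, and C4-HP was 15.3-fold above Pr-HP. All 3 further Plagl1 probe sets were past 3-fold in the same direction, with log2 ratios of at least 1.78, 2.74 and 2.81. Nnat, which encodes a small proteolipid of the endoplasmic reticulum, had 2891, 144, 1285 and 1976 units and was 13.7-fold higher in C4-HP. Ndn, a member of the MAGE family, showed another order, with 321 units in Pr-LP, 197 in Pr-HP, 1101 in C4-LP and 870 in C4-HP. Here both clone 4 populations stood above both parental ones, and C4-HP was 4.42-fold over Pr-HP and, by the other probe set, at least 8.72-fold. Peg3, a paternally expressed zinc finger gene, was under the limit with 1461 units in Pr-HP and 3975 in C4-HP, a log2 ratio of 1.44. Cd81, a tetraspanin that lies in an imprinted region, was the member higher in Pr-HP, with 844 against 265 units.

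The start regions of 4 genes are shown to set the strongest differences in each direction beside a gene that was high in C4-HP alone, since their content of CpG dinucleotides, the sites of DNA methylation, is very unequal. Each window runs from 250 bases before to 50 bases after the start in RefSeq (GRCm38.p6), 5′ to 3′ on the gene's strand, and capitals mark CpG. Dlk1 (chr12:109452573-109452872, plus strand) holds 9 of them, Plagl1 (chr10:13090582-13090881, plus strand) 26, Slc2a2 (chr3:28697653-28697952, plus strand) 2 and Crybb3 (chr5:113081535-113081834, minus strand) 6. Methylation was not measured on these arrays.
Dlk1: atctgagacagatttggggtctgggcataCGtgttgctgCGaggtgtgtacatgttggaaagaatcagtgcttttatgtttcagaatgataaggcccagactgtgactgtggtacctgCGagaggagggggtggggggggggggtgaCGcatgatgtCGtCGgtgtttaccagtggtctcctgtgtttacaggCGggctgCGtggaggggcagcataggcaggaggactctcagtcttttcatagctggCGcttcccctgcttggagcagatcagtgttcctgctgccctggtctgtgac
Plagl1: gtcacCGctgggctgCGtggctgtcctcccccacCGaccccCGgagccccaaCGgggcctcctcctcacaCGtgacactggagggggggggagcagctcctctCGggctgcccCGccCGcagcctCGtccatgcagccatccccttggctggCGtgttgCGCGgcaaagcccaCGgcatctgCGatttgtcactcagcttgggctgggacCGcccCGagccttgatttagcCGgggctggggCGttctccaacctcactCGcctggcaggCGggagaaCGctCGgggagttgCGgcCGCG
Slc2a2: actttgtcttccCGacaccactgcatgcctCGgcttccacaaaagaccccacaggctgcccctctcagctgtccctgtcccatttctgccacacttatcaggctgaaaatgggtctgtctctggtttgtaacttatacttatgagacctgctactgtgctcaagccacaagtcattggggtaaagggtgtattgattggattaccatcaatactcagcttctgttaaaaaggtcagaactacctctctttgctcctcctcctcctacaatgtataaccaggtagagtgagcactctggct
Crybb3: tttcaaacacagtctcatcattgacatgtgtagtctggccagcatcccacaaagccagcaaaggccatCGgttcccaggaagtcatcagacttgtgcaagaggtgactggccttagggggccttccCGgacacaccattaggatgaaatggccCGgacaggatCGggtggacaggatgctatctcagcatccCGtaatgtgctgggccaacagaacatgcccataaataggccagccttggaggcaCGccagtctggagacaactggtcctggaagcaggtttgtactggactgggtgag

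Across the genes higher in C4-HP, 36 of 41 had a window in the RefSeq table. The median ratio of observed to expected CpG was 0.613 in these windows and 0.742 in the 10084 windows of all measured genes. The windows of Slc2a2 (0.121), Hepacam2 (0.219), Crybb3 (0.272) and Dlk1 (0.427) lay below both medians, and that of Plagl1 (0.696) between them. TATAAA was found on either strand in 5 of the 36 windows (13.9%, against 7.96% of all), GGGCGG in 22 (61.1% against 61.7%) and the palindrome CACGTG in 2 (5.56% against 9.73%). The cAMP response element TGACGTCA was found in 3 (8.33% against 2.98%), those of Th, Meg3 and Tmem59l, and TGCTGAC, the core bound by Maf factors, in 0 (against 3.72%). These are counts of letters with no test. Of the genes higher in Pr-HP only 75.3% had a window, against 80.1% of all measured genes, which limits the same description for them. The median CpG ratio in their windows was 0.662, also under the 0.742 of all, so a lower ratio was not particular to the genes higher in C4-HP.

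Surface molecules gave large ratios in both directions. Of 35 measured surface and adhesion genes, 4 were past 3-fold higher in C4-HP and 3 higher in Pr-HP, beside 0.325% and 0.611% of all genes. The list's median of -0.16 leaned to Pr-HP. Hepacam2, of the immunoglobulin superfamily, had 2979 units in Pr-LP, 119 in Pr-HP, 1347 in C4-LP and 1830 in C4-HP, a 15.4-fold difference at high passage. Cd24a, a small glycoprotein anchored to the membrane by a lipid, had 2627, 104, 2711 and 1279 units, and C4-HP was 12.3-fold above Pr-HP. In both genes Pr-HP alone was low.

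Eef1a2, for a translation elongation factor, had 1232 units in Pr-LP, 270 in Pr-HP, 2575 in C4-LP and 1846 in C4-HP and differed 6.85-fold. Epb41l4b, of the band 4.1 family that links membranes to the cytoskeleton, had 1088, 169, 659 and 1048 units. Its 6.20-fold difference was not matched by its other probe sets, which gave 1.28-fold and 1.32-fold.

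Cdhr1, a cadherin, was 5.09-fold and Alcam, an immunoglobulin-type adhesion molecule, 3.70-fold higher in C4-HP. The further Alcam probe sets gave at least 3.05-fold, 7.55-fold and, below 100 units, at least 1.46-fold. The surface genes on the other side were Edil3, a secreted ligand of integrins, Perp, a component of desmosomes, and Cd81. Edil3 had 68.0 units in Pr-LP, 1216 in Pr-HP, 371 in C4-LP and 194 in C4-HP, a 6.27-fold excess in Pr-HP, and of its other probe sets 2 were past 2-fold the same way, 1 had a log2 ratio of 0.06 and 1 lay under the floor in both (20.4 and 18.9 units). Perp had 190, 803, 121 and 106 units, a 7.54-fold excess.

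**Figure D3:**
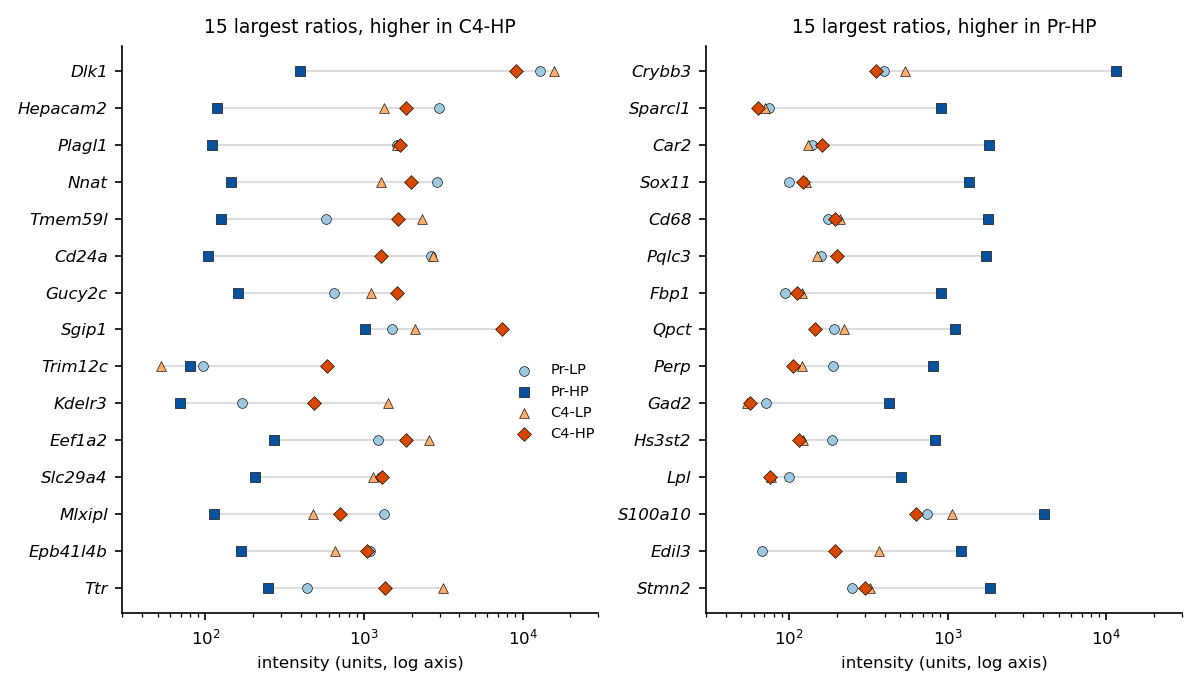
Intensities of the 15 genes with the largest ratios in each direction, on a log axis, with 1 marker for each of the 4 populations. On the left Pr-HP is the lowest marker in 14 genes and C4-LP in Trim12c, and on the right Pr-HP is the highest marker in all 15.

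Genes with a part in glucose use and secretion did not move as a block. Of 47 measured genes of glucose uptake, glycolysis and coupling, 3 were past 3-fold higher in C4-HP and 2 higher in Pr-HP, beside 0.325% and 0.611% of all genes. The list's median was -0.13. Mlxipl, the transcription factor ChREBP that answers glucose, had 1344 units in Pr-LP, 113 in Pr-HP, 475 in C4-LP and 708 in C4-HP, a 6.29-fold difference at high passage. Ppp1r3d, a subunit that directs protein phosphatase to glycogen, had 237, 48.3, 105 and 209 units and differed 4.32-fold.

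Slc2a2, which encodes GLUT2, had 478 units in Pr-LP, 499 in Pr-HP, 464 in C4-LP and 1754 in C4-HP. The 3.51-fold difference at high passage thus lay in C4-HP, and Pr-HP did not stand below either low-passage population. The KATP channel genes Abcc8 and Kcnj11 had log2 ratios of C4-HP over Pr-HP of 0.36 and 0.54, and a further Kcnj11 probe set gave 483 against 967 units, which is just past 2-fold. On the side of Pr-HP, Ldha had 358 units in Pr-LP, 3059 in Pr-HP, 1397 in C4-LP and 580 in C4-HP, a 5.27-fold excess. Fbp1, for the gluconeogenic fructose bisphosphatase, had 94.8, 910, 121 and 112 units, an 8.10-fold excess in Pr-HP.

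The β-cell hormones gave very bright probe sets, and signals of this height can leave the linear range of an array, which was not tested here. Ins2 had 14771 units in Pr-LP, 15526 in Pr-HP, 15461 in C4-LP and 14920 in C4-HP, and Iapp, for amylin, had 8291, 7444, 9641 and 8111. Their log2 ratios at high passage were -0.06 and 0.12. Ins1 had 28132, 16852.5, 27736 and 27215 units, a log2 ratio of 0.69, and a further probe set gave 2.24-fold. The Ins1 probe sets and the Ins2 probe set given here are of a kind shared within a gene family, so Ins1 and Ins2 signal in them cannot be separated. The names of the Ins1 probe sets were taken from the study's published values because the platform annotation leaves them blank. Pdx1 (log2 ratio 0.13) was within 2-fold, as were 25 of 28 measured islet transcription factors. Neurod1 was within 2-fold by its brightest probe set, with a log2 ratio of 0.45, and just past it by the other, with 2.01-fold (184 against 368 units). None of these 28 was past 3-fold, as the shares over all genes would also give, and 22 of them had the higher value in C4-HP and the list's median was 0.16, against 6283 of 12597 genes and a median near 0 over all. The 3 past 2-fold were Myt1 (1.23), Insm1 (1.14) and Nkx6-2 (1.14).

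In the insulin granule group, Ptprn2, for the granule membrane protein phogrin, was the member past 3-fold among 20 measured genes (higher in C4-HP, as were 0.325% of all genes). It had 4334 units in Pr-LP, 821 in Pr-HP, 3261 in C4-LP and 2932 in C4-HP, a 3.57-fold difference, though a dimmer probe set gave 1.23-fold. Pcsk1n, for an inhibitor of the prohormone convertase PC1/3, was past 2-fold (log2 ratio 1.17), while the convertase gene Pcsk1 had 1379 units in Pr-HP and 771 in C4-HP. Of 46 genes for exocytosis and calcium sensing, 2 were past 3-fold in C4-HP and 1 in Pr-HP, beside 0.325% and 0.611% of all genes. Scgn, for the calcium sensor secretagogin, had 4283 units in Pr-LP, 464 in Pr-HP, 1082 in C4-LP and 2009 in C4-HP and differed 4.33-fold. Cplx2, for complexin 2 of the SNARE machinery, had 1881, 545, 1672 and 2003 units and differed 3.67-fold, with 1.53-fold and 2.31-fold for its other probe sets.

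S100a10, for a partner of annexin A2, was the member higher in Pr-HP, with 738 units in Pr-LP, 4067 in Pr-HP, 1065 in C4-LP and 629 in C4-HP. That 6.47-fold excess was seen by the brightest probe set, and the others gave log2 ratios of -0.15 and -0.28. No ion channel or pump gene among 28 was past 3-fold, which at the shares over all genes (0.325% and 0.611%) is no result about the list. Its median was 0.13, with 20 members higher in C4-HP, and the 2 past 2-fold were Slc12a2 (1.21), for a chloride cotransporter, and Kcnma1 (1.09), for the BK potassium channel.

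Single receptor and monoamine genes gave further large ratios. Of 45 measured genes of receptors, G proteins and cAMP, 1 was past 3-fold in each direction and 39 were within 2-fold (list median -0.08). Of 14 measured monoamine and GABA genes, 2 were past 3-fold higher in C4-HP and 1 higher in Pr-HP (list median -0.11). The shares over all genes were 0.325% and 0.611%. Gucy2c, the guanylate cyclase receptor for guanylin, had 650 units in Pr-LP, 161 in Pr-HP, 1106 in C4-LP and 1617 in C4-HP, a 10.1-fold difference that was 0.78 on the log2 scale for its other probe set. Gnai1, for an inhibitory G protein subunit, went the other way, with 230, 1022, 374 and 209 units and a 4.88-fold excess in Pr-HP by its brightest probe set, while its others had log2 ratios of -1.29, -0.09 and -0.07. Slc29a4, for a monoamine transporter of the plasma membrane, had 1280, 206, 1138 and 1308 units and differed 6.34-fold. Th, for tyrosine hydroxylase, had 1944, 221, 2181 and 719 units and differed 3.25-fold. Gad2, which makes GABA from glutamate, had 72.0, 426, 54.5 and 56.6 units, an excess of at least 7.29-fold in Pr-HP. Its other probe sets stayed under 100 units in both.

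**Figure D4:**
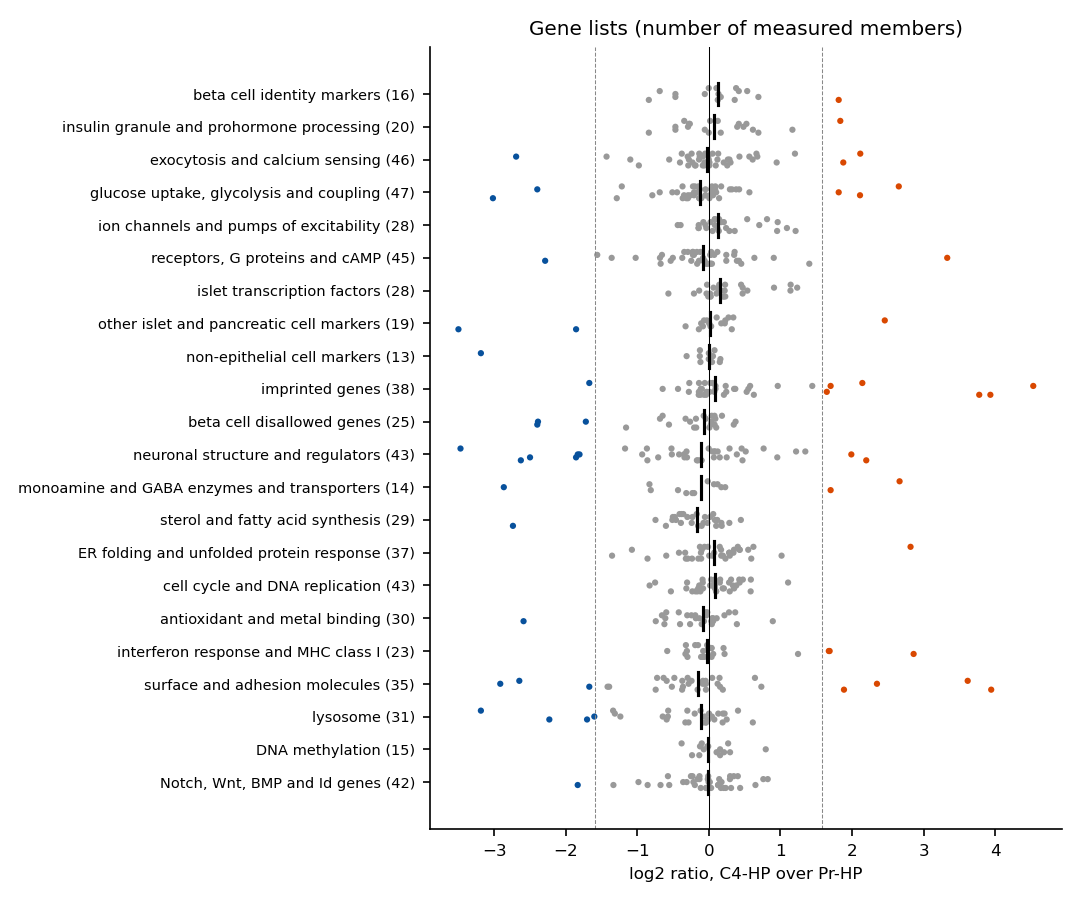
Log2 ratios of C4-HP over Pr-HP for the measured members of 22 gene lists, 1 point for each gene, with the list's median as a black bar and dashed lines at 3-fold. Medians lie between -0.17 and 0.16, and single members past the lines, as in the imprinted, neuronal and lysosomal lists, carry the differences.

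Neuronal genes were split between the populations. Of 43 measured genes of neuronal structure and regulation, 6 were past 3-fold higher in Pr-HP and 2 higher in C4-HP, beside 0.611% and 0.325% of all genes. The list's median was -0.11. Sox11, a transcription factor of immature neurons, had 100 units in Pr-LP, 1354 in Pr-HP, 127 in C4-LP and 122 in C4-HP, an 11.1-fold excess. Of its other probe sets 3 were past 2-fold the same way, with log2 ratios of -1.36 (a bound), -1.58 and -2.20, and 1 lay under the floor in both (47.7 and 46.4 units). Stmn2, a regulator of microtubules, had 250, 1851, 322 and 300 units and a 6.18-fold excess in Pr-HP, with a log2 ratio of -3.25 by another probe set and 75.9 against 63.4 units by a dim one.

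Rbfox1, a splicing regulator, had a 5.65-fold excess in Pr-HP and a log2 ratio of -0.64 by another probe set. Elavl4, for an RNA-binding protein of neurons, had a 3.62-fold excess. Nrcam, an adhesion molecule of axons, was 3.56-fold and Uchl1, a ubiquitin hydrolase, 3.50-fold higher in Pr-HP. On the side of C4-HP stood Ttyh1, with 135 units in Pr-LP, 206 in Pr-HP, 2120 in C4-LP and 948 in C4-HP. Fgf12, a fibroblast growth factor homologue that stays in the cell and binds sodium channels, was 3.97-fold higher in C4-HP.

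Lysosomal genes past 2-fold were all higher in Pr-HP. Of 31 measured, 7 were past 2-fold and 4 past 3-fold higher in Pr-HP, beside 1.73% and 0.611% of all genes. None was past 2-fold higher in C4-HP (1.11% of all genes), although 10 members had their higher value there, and the list median was -0.12. Cd68, a glycoprotein of lysosomal membranes, had 177 units in Pr-LP, 1785 in Pr-HP, 210 in C4-LP and 196 in C4-HP, a 9.10-fold excess. Lgmn, for the protease legumain, had 198, 800, 401 and 246 units and a 3.25-fold excess. Gnptab, which starts the mannose 6-phosphate tag of lysosomal enzymes, had a 4.69-fold excess, but its other probe sets had log2 ratios of -0.49, -0.37 and 0.13. Ctsl, for cathepsin L, had 1051, 3223, 3561 and 1063 units, so that Pr-HP shared its high level with C4-LP.

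Of 25 measured disallowed genes, 3 were past 3-fold higher in Pr-HP (0.611% of all genes) and none higher in C4-HP (0.325%), with 11 members higher in C4-HP and a median of -0.07. The 3 genes were Ldha, Oat and Fgfr2. Oat, for ornithine aminotransferase, had 121 units in Pr-LP, 427 in Pr-HP, 167 in C4-LP and 81.6 in C4-HP, a 5.24-fold excess. Fgfr2, a fibroblast growth factor receptor, had 369, 1205, 291 and 366 units, a 3.29-fold excess. Its other probe sets gave 1.86-fold and, below 100 units, 1.20-fold and 1.14-fold, and 1 lay under the floor in both (57.1 and 19.5 units). Single members of other lists that were past 3-fold higher in Pr-HP were Lpl, for lipoprotein lipase (6.67-fold, and at least 1.84-fold by another probe set), Nqo1, for a quinone reductase (6.02-fold), and Inhba, for the activin A subunit (3.56-fold). Of the 43 cell cycle genes and the 15 genes of DNA methylation measured, none was past 3-fold in either direction, which is likewise close to the shares over all genes. In the latter list Dnmt3a, a de novo methyltransferase, differed the most, with 337 units in Pr-HP and 584 in C4-HP (log2 ratio 0.79).

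The largest ratio of all belonged to Crybb3, which encodes a β-crystallin of the eye lens. It had 397 units in Pr-LP, 11438 in Pr-HP, 538 in C4-LP and 353 in C4-HP, a 32.4-fold excess in Pr-HP. Sparcl1, a secreted matrix glycoprotein, had 74.9, 909, 70.8 and 64.0 units and an excess of at least 13.5-fold. Its other, dim probe set gave 1.07-fold (44.1 against 41.1 units). Car2 encodes carbonic anhydrase 2, which the study places in both duct cells and α-cells of the pancreas. It had 139 units in Pr-LP, 1831 in Pr-HP, 131 in C4-LP and 162 in C4-HP, an 11.3-fold excess. Among the other genes with large ratios were Qpct, for glutaminyl cyclase (7.66-fold), Hs3st2, for a sulfotransferase of heparan sulfate (7.22-fold), and Pqlc3 (8.67-fold). In all of these Pr-HP alone was high.

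Il4, for interleukin 4, was measured many times over because its transcript is also a control on each chip. The gene's probe set had 43.5 units in Pr-LP, 282 in Pr-HP, 45.9 in C4-LP and 55.6 in C4-HP, an excess of at least 4.20-fold. A further probe set had 171 units in Pr-HP and 20.4 in C4-HP. The control, which was left out of the counts, had 165, 219 and 282 units in Pr-HP on chips A, B and C against 29.3, 32.6 and 38.6 in C4-HP. Each of these 5 measurements was higher in Pr-HP. The 3 arrays of a population are the 3 different chips and no replicates. Dimmer probe sets of Il4, if any, are not given here, and Il4 was named after its values were seen. The recurrence is therefore no independent support.

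Markers of other cell types were examined beside these differences. Of 17 β-cell markers 15 are on the arrays, and all of them reached 100 units in each population, with summed levels of 67863 in Pr-HP and 76950 in C4-HP. Ins1, with 16852.5 and 27215 units, differed by more than these sums do, and the other members together were not lower in Pr-HP. The 4 α-cell markers summed to 11077 in Pr-HP and 4621 in C4-HP. Glucagon (Gcg) made up most of this, with 502 units in Pr-LP, 10552 in Pr-HP, 3175 in C4-LP and 2915 in C4-HP, a 3.62-fold excess in Pr-HP, and its further probe set had a log2 ratio of -3.03. Ttr, for transthyretin, another α-cell marker, went the other way, with 435, 248, 3135 and 1362 units. Irx1 and Irx2 had 235 and 42.3 units in Pr-HP and 276 and 68.3 in C4-HP.

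Macrophage markers summed to 2760 units in Pr-HP and 1180 in C4-HP. Cd68 made this difference. Of the other macrophage markers Cd14 had 643 and 650 units, Adgre1, Csf1r and Itgam lay between 84.5 and 91.1 units in both, and Ptprc and Lyz2 were under the 20th percentile of their chip in all 4 populations. Fibroblast markers summed to 2704 and 2721 units, acinar markers to 1854 and 1982, duct markers to 2131 and 2465 and endothelial markers to 587 and 616. Whether another cell type had a part in the single differences was not tested. The Gapdh control, whose 3′ over 5′ signal falls with better RNA, read 0.867, 0.953 and 1.16 in Pr-HP and 1.01, 1.09 and 1.31 in C4-HP on the 3 chips, and the part of this in the results was not tested.

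Where the low-passage populations lay was read from the geometric midpoint between the C4-HP and Pr-HP values of each gene past 3-fold. High or low in these groups means a side of that midpoint, and a value can lie near it. The Pr-HP arrays set that midpoint in every case, so these counts describe levels and are no independent support. Of the 41 genes higher in C4-HP, 25 had both low-passage populations on the side of C4-HP, so that Pr-HP alone was on the low side. Among these were Dlk1, Plagl1, Nnat, Cd24a, Mlxipl, Scgn and Ptprn2. In Scgn, C4-LP with 1082 units was still far under Pr-LP with 4283.

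In 8 genes (Kdelr3, Ttr, Ttyh1, Ndn, Pdyn, Emilin1, Tmem45a and Med12) C4-LP sided with C4-HP and Pr-LP with Pr-HP, so that the values divided by clone and not by passage. Kdelr3, for a receptor that returns proteins to the endoplasmic reticulum, had 171 units in Pr-LP, 69.1 in Pr-HP, 1410 in C4-LP and 487 in C4-HP, and its other probe set had a log2 ratio of C4-HP over Pr-HP of 1.13. Pdyn, the precursor of dynorphins, had 735, 473, 4297 and 1966 units. In both the higher level of clone 4 was already seen at low passage.

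In 4 genes C4-HP alone was high, namely Sgip1, Trim12c, Iyd and Slc2a2. Sgip1, for an adaptor of endocytosis, had 1496 units in Pr-LP, 1012 in Pr-HP, 2094 in C4-LP and 7388 in C4-HP, a 7.30-fold difference, though its other probe sets had log2 ratios of 0.01 and 0.19. Trim12c had 96.7, 80.4, 52.7 and 584 units and differed 7.26-fold. Iyd, for iodotyrosine deiodinase, had 53.2, 48.2, 73.9 and 244 units and differed at least 3.63-fold. Trim12c is 1 of 3 genes of the interferon list past 3-fold in C4-HP among 23 measured (0.325% of all genes were). The others were Ly6e and Usp18, a protease for the modifier ISG15, in which Pr-HP alone was low, and the list's median was -0.02. The 3.22-fold difference of Ly6e was not seen by its other probe sets (log2 ratios 0.19 and -0.13).

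Of the 77 genes higher in Pr-HP, 53 had both low-passage populations on the side of C4-HP, so that Pr-HP alone was on the high side. In 8 others C4-LP was on the high side as well, among them Ctsl, Ldha, Wipi1 and Prkcb. Ldha, however, had 1397 units in C4-LP against 3059 in Pr-HP. In 10 genes both parental populations were high, which included Bex4, Cpt1a, Cd81, Uchl1, Esrp1 and Nqo1. Esrp1, a splicing factor of epithelia, had 251 units in Pr-LP, 327 in Pr-HP, 43.1 in C4-LP and 45.4 in C4-HP, and Nqo1 had 302, 432, 50.1 and 71.8. Clone 4 was low in both at either passage. In 6 genes, Tmem35a, Reep1, Tmsb4x, Ldlrad3, Hsd17b11 and Shisa2, C4-HP alone was low.

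The same ratio at low passage, C4-LP over Pr-LP, rests on arrays that the high-passage ratio does not use. There 66 of 12598 genes were over 3-fold higher in C4-LP (0.524%) and 26 over 3-fold higher in Pr-LP (0.206%). Among 12419 genes measured at both passages, 39 were higher in clone 4 at high passage and 62 at low passage, and 8 were shared, which is 20.5% of the first list and 12.9% of the second. These were Emilin1, Kdelr3, Ndn, Pdyn, Tmem45a, Tmem59l, Ttr and Ttyh1. Of genes higher in parental cells, 69 at high passage and 20 at low passage, 2 were shared (2.90% and 10% of the lists), Esrp1 and Nqo1. Over all 12419 genes the log2 ratios at the 2 passages had a Pearson correlation of -0.0192 and a Spearman correlation of -0.00431, given as a description across genes, which are not independent.

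Tmem59l was among the shared genes with a large ratio, with 576 units in Pr-LP, 125 in Pr-HP, 2324 in C4-LP and 1649 in C4-HP, which is 13.2-fold at high and 4.03-fold at low passage. Ttyh1 differed 4.59-fold at high and 15.7-fold at low passage. Of the genes past 3-fold at high passage, 20 of the 39 higher in C4-HP and 52 of the 69 higher in Pr-HP were within 2-fold at low passage. The low-passage log2 ratio was 0.31 for Dlk1, -0.000146 for Plagl1, 0.05 for Cd24a and 0.44 for Crybb3.

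A further 11 genes were past 3-fold at both passages in opposite directions. Scgn, Cdhr1, Ky, Jade3 and 1700086L19Rik were higher in C4-HP than in Pr-HP but higher in Pr-LP than in C4-LP. Ctsl, Edil3, Gcg, Ldha, Nrcam and Wipi1 were higher in Pr-HP than in C4-HP but higher in C4-LP than in Pr-LP. In Gcg, for instance, C4-LP exceeded Pr-LP 6.33-fold and Pr-HP exceeded C4-HP 3.62-fold, while the clone 4 levels were close to each other (3175 and 2915 units). In Wipi1, a protein of autophagy, the pair C4-LP and Pr-HP (1912 and 1777.5 units) stood above the pair Pr-LP and C4-HP (424 and 448 units). The other Wipi1 probe sets gave smaller excesses of Pr-HP over C4-HP, 2.13-fold and 1.53-fold.

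**Figure D5:**
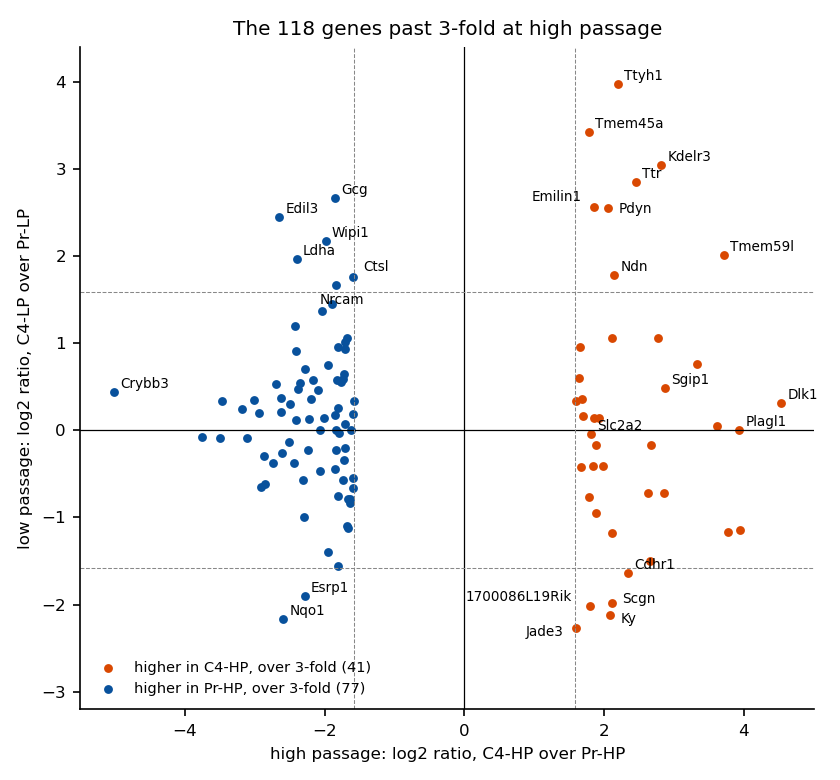
Log2 ratios of clone 4 over parental cells for the 118 genes past 3-fold at high passage, with the high-passage ratio on the horizontal and the low-passage ratio on the vertical axis and dashed lines at 3-fold. Most genes lie between the horizontal lines, 10 lie past 3-fold in the same direction at both passages and 11 in opposite directions.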

How the data were processed

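RNA of 4 MIN6 populations was hybridised to 3 Affymetrix chips, 1 array for each population and chip. The authors deposited probe set intensity values on a linear scale. Per the study's methods the scanned arrays were analysed in Affymetrix GeneChip software, with no settings for probe summary or normalization named in the sources used here. Distributions of the arrays are nearly identical, and the values were used unscaled. The chips hold 36899 probe sets with 198 controls, which were dropped. Of the other 36701, 29135 have 1 symbol (15967 genes), 724 several and 6842 none. Names come from the platform annotation, and 4 probe sets without a name there, those of Ins1 and Pcsk2 among them, were named from values the study published. The 20th percentile of each chip served as a floor, and ratios of C4-HP over Pr-HP were counted past 3-fold (also 2- and 5-fold) where the higher value reached 100 units. Groups come from the sample labels. With 1 array a side no test or interval could be computed, and precision is limited by the number of arrays. Members and lists were chosen with earlier results of these data known. Named are the 15 largest ratios in each direction, list members past 3-fold or with the largest ratios of a described list, genes opposite at low passage, and the study's genes of glucose sensing and insulin, of which 1 is not reported here. Others (Il4, the genes at the 3-fold limit, the markers and the genes of each placement group) were named after their values were seen. The 22 lists hold 803 genes, of which 725 were on the arrays and 630 measured. The counting was tested on simulated data. Promoter windows and motifs were read from RefSeq tables, at the first start listed for a gene. Python 3.11.15, pandas 2.3.3 and numpy 2.4.6 were used.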

Additional observations from a re-analysis of the deposited data

Results flagged for a closer look

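In 11 genes the ratio of clone 4 over parental cells was past 3-fold at both passages with opposite signs. The difference between the passages was not tested, since each side is 1 array. At high passage the log2 ratio of C4-HP over Pr-HP was 2.12 for Scgn, 2.35 for Cdhr1, 2.08 for Ky, 1.60 for Jade3 and 1.80 for 1700086L19Rik. At low passage the ratio of C4-LP over Pr-LP was -1.99 for Scgn, -1.64 for Cdhr1, -2.12 for Ky, -2.27 for Jade3 and -2.01 for 1700086L19Rik. The other way round, the high-passage ratio was -1.60 for Ctsl, -2.65 for Edil3, -1.86 for Gcg, -2.40 for Ldha, -1.83 for Nrcam and -1.99 for Wipi1. Their low-passage ratios were 1.76 for Ctsl, 2.45 for Edil3, 2.66 for Gcg, 1.96 for Ldha, 1.67 for Nrcam and 2.17 for Wipi1. Of the other probe sets of Edil3, 2 were past 2-fold at high passage, 1 was not (0.06) and 1 lay under the floor in both high-passage populations. The other probe sets of Wipi1 had high-passage log2 ratios of -1.09 and -0.61.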

How the results depend on the processing

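No paired analysis was possible because each population has 1 array on each chip. The alternatives were floors at the 10th and 40th percentile and at 1 unit, quantile normalization, a higher value of at least 50 or 200 units, and the median of a gene's probe sets. Over all of them the number of genes higher in C4-HP lay between 33 and 42 and that of genes higher in Pr-HP between 63 and 84, all within 1.5 times the reported counts. With the 40th percentile as floor 34 of the 41 and 63 of the 77 genes remained past 3-fold, and with the median of probe sets 32 and 60. Of the recomputed ratios of named genes only that of Ins2 changed sign (-0.06 to 0.07 under quantile normalization), 307 moved by less than the 0.18 that separates probe sets of 1 gene, and 48 moved by more. For ratios, the median of probe sets was added after the data were seen. It took Dlk1 from 4.53 to 0.45, Sgip1 from 2.87 to 0.19, S100a10 from -2.69 to -0.28, Gnptab from -2.23 to -0.43, Meg3 from 1.65 to 0.32 and Ly6e from 1.69 to 0.19, while Plagl1 fell to 2.78 from 3.93 and remained past 3-fold. Low signal limits the folds of 12 genes whose lower value lay under the floor.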
